A study of Mus musculus with 9 samples.

Results

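The genes described here are 8 Toll-like receptors and the main pair of adaptors through which they signal. They are Tlr1, Tlr2, Tlr3, Tlr4, Tlr5, Tlr6, Tlr7, Tlr9, Myd88 and Ticam1, chosen by gene name from the deposited expression table, and all 10 were found among its 31167 genes. Expression was measured by RNA sequencing in mouse primary renal tubular epithelial cells of strain C57BL/6, with 3 libraries in each of 3 groups. Sham cells were the controls. H/R cells were kept in glucose-free medium at 1.0% oxygen for 6 h and then returned to complete medium and normal oxygen for 18 h, which mimics ischemia and reperfusion in culture. EGR1OV cells were transfected with an Egr1 plasmid, Egr1 being a zinc finger transcription factor. Its expression in cultured cells was driven by the CMV promoter, which is active in most cell types. The study describes Sham cells as untreated, and no source used here names an empty plasmid for Sham or H/R cells or gives the time from transfection to harvest, so the overexpressed gene and the transfection cannot be told apart in this design. Nothing says that the 3 libraries of a group came from separate cultures or mice, so the p-values measure the spread between these libraries, which may be technical.

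Toll-like receptors recognise molecules of microbes and of damaged cells. Receptors of the cell surface read lipids, lipopeptides and flagellin, while those of the endosome read nucleic acids. Most signal through Myd88 towards NF-kB and inflammatory cytokines, Tlr3 signals through Ticam1 (TRIF) towards type I interferon, and Tlr4 uses both. Tubular epithelial cells are known to carry several of these receptors, and Tlr2 and Tlr4 have been studied in ischemic kidney injury.

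Values are FPKM, in which fragments are counted relative to exon length and to library depth, so that levels of genes of different length can be compared. The depth of each library, recovered from the steps between FPKM values, was 16183617 to 18384022 reads. Egr1 was at 6.20, 6.91 and 6.09 FPKM in Sham, 8.57, 7.59 and 7.48 FPKM in H/R and 45.7, 42.2 and 40.1 FPKM in EGR1OV, in the order of the replicate numbers, which is the order of every list of values by library here. The cells carried epithelial markers, with a mean of 1014 FPKM for Krt8 and 86.2 FPKM for Cdh1 in Sham, while Umod, the marker of the thick ascending limb, was listed at 0 in all 9 libraries. Of 16 tubular markers listed, 15 were found, and 9 averaged 0.5 FPKM or more over the 9 libraries and were tested. In Sham 3 of the 15, Umod among them, had at most 3 reads in any library. In EGR1OV against Sham 4 of the 9 were lower, Lrp2 most, then Aqp1 (under 0.5 FPKM in EGR1OV), Krt18 and Krt8. Only Epcam was higher, a call lost with median-ratio and with quantile scaling. Markers of other cells were present too. The summed level of 14 macrophage markers was 159 to 165 FPKM in Sham, 134 to 145 FPKM in H/R and 30.2 to 35.3 FPKM in EGR1OV, and none of these markers was at 0 in all libraries. Neutrophil and lymphocyte markers summed to at most 0.403 FPKM in any library, and none was tested. Dendritic cell markers summed to 3.76 to 4.08 FPKM in Sham and 1.11 to 1.31 FPKM in EGR1OV, where 1 of 2 tested, Itgax, was lower, which passed the filter only through Sham and H/R. Endothelial markers summed to 9.81 to 10.1 FPKM in Sham and 6.76 to 7.43 FPKM in EGR1OV, where 1 of 4 tested, Pecam1, was lower. Fibroblast markers summed to 25.7 to 32.4 FPKM over all libraries, with 0 of 3 called by limma in EGR1OV against Sham and 1, Col1a1, higher after H/R.

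The promoter sequences of the 3 members that changed, Tlr2, Tlr3 and Myd88, are shown beside that of the adaptor Ticam1, which was not called. They come from RefSeq on build GRCm38.p6, run 5′ to 3′ on the strand of the gene and hold 250 bases before and 50 bases after the annotated start. Capitals mark matches on either strand to 4 motifs, namely the Egr motif GCGNGGGCG, the interferon-stimulated response element GAAANNGAA, the gamma-activated site TTCNNNGAA and the kappaB motif bound by NF-kB. The Tlr2 window is chr3:83841559-83841858 (minus strand), the Tlr3 window chr8:45410331-45410630 (minus strand), the Myd88 window chr9:119339969-119340268 (minus strand) and the Ticam1 window chr17:56276718-56277017 (minus strand).
Tlr2: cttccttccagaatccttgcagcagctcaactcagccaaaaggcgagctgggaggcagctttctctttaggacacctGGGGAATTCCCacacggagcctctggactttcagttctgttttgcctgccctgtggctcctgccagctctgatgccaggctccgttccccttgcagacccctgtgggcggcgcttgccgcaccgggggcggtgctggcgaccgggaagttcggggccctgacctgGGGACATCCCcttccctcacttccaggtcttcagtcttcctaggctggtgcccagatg
Tlr3: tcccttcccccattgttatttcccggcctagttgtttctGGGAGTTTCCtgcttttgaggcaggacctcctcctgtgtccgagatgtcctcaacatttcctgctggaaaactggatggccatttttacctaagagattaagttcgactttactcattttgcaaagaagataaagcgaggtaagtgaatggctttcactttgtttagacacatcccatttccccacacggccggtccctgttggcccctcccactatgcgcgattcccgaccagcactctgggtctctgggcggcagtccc
Myd88: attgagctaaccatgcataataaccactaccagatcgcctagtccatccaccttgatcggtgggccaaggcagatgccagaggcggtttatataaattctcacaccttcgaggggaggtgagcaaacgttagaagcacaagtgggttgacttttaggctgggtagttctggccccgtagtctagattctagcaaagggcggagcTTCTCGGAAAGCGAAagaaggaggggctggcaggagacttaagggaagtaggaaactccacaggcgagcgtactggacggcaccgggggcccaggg
Ticam1: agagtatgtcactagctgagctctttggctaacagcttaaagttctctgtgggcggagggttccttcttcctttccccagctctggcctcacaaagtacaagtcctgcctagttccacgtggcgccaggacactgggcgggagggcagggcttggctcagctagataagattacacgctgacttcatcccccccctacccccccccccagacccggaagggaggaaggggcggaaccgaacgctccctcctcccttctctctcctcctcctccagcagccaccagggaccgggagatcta

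The Tlr2 window held 3 kappaB matches, of which GGGGAATTCC at position -173 and GGGAATTCCC at -172 overlap, and the third, GGGACATCCC at -8, runs across the start. Positions count from the start annotated by RefSeq, with -1 as the last base before it. That start need not be the 5′ end of the gene positions used for expression. The Tlr3 and Myd88 windows lie wholly inside those positions, whose 5′ ends on the minus strand are at 45411080 and 119341411. The Tlr3 window held 1 kappaB match, GGGAGTTTCC at -211. The Myd88 window held a gamma-activated site, TTCTCGGAA at -46, and an interferon-stimulated response element, GAAAGCGAA at -40, which overlap. The Ticam1 window held no match to any of the 4 motifs. Of 32544 mouse promoter windows of the same length, 4.53% held the kappaB motif, 8.53% the interferon-stimulated response element, 8.33% the gamma-activated site and 5.6% the Egr motif. No match to the Egr motif stood in the 10 windows given for 8 of the members, which says only that these letters are absent from these windows. Matches stood also in members that were not tested, with interferon-stimulated response elements in a Tlr6 window and gamma-activated sites in a Tlr1 and a Tlr6 window. Tlr4 and Tlr7 had no entry.

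In EGR1OV cells, Tlr3 rose most among the members tested, followed by Tlr2 and the adaptor Myd88, while the adaptor Ticam1 and the receptors Tlr4 and Tlr5 did not pass the test with its fold threshold. After H/R no member passed. Of the 10 members, 6 reached 0.5 FPKM on average across all 9 libraries and were tested (Tlr2, Tlr3, Tlr4, Tlr5, Myd88 and Ticam1), and each of these was above that level in Sham alone. By limma over all 13985 genes that passed the filter, a call needed an adjusted p under 0.05 together with a change of 1.3-fold (comparisons with EGR1OV) or 1.2-fold (H/R against Sham) on the scale of log2(FPKM + 1). In EGR1OV against Sham 3 of the 6 were called, all higher, where calls fell on 16.4% of all genes tested, with 9.87% higher and 6.51% lower. The median log2 change of the 6 was 0.64, against 0.017 over all genes tested. In H/R against Sham 0 of the 6 were called, where 4.25% of all genes were, 1.6% higher and 2.65% lower, and 0 of the 6 had an unadjusted limma p under 0.05. The limma voom test on recovered reads also called 0 of the 6, where it called 921 of 13130 genes. The median log2 change of the 6 after H/R was 0.015, against -0.030 over all genes. In EGR1OV against H/R the same 3 members were called, all higher, where 18.9% of all genes were called, 11.9% higher and 6.94% lower. The 3 comparisons share libraries and are not independent.

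**Figure D1:**
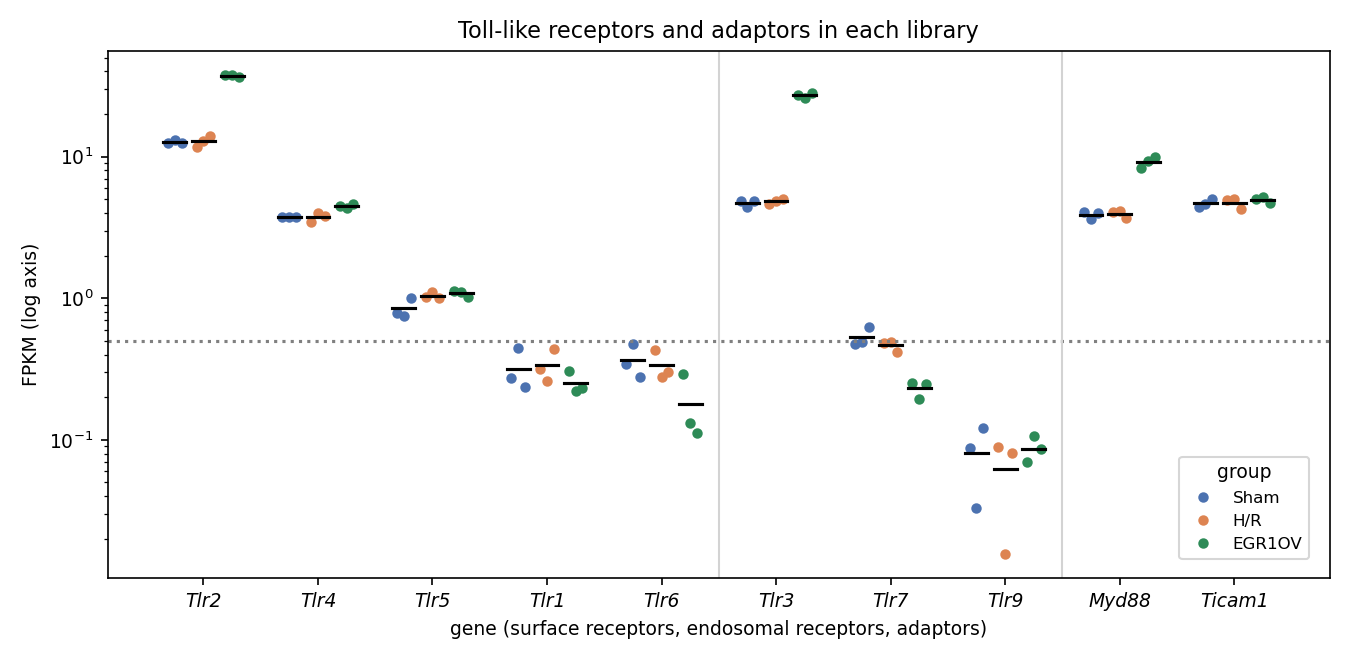
FPKM (log axis) of each of the 10 genes in each of the 9 libraries. Points are libraries, coloured by group, black lines are group means (n = 3), the dotted line is the 0.5 FPKM used as filter on the mean, and vertical lines part surface receptors, endosomal receptors and adaptors. For Tlr2, Tlr3 and Myd88, and by little for Tlr4, the EGR1OV libraries stood above the other 6, and for Tlr7 they stood below them.

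Among the surface receptors, Tlr2, which pairs with Tlr1 or Tlr6 to read bacterial lipopeptides, was the most abundant member in every group. Tlr2 (ENSMUSG00000027995, chromosome 3 from 83836272 to 83841767, minus strand, GRCm38) was at 12.4, 13.1 and 12.5 FPKM in Sham, at 11.6, 12.9 and 14.0 FPKM in H/R and at 37.6, 37.9 and 36.7 FPKM in EGR1OV. The 3 EGR1OV libraries lay above all others, and the Sham and H/R libraries overlapped. The group means (SD, n = 3 each) were 12.7 ± 0.355 FPKM for Sham, 12.8 ± 1.2 FPKM for H/R and 37.4 ± 0.637 FPKM for EGR1OV, a ratio of 2.94 between EGR1OV and Sham. On the scale of log2(FPKM + 1), Tlr2 rose by 1.49 with a standard error of 0.056 in EGR1OV (limma adjusted p = 3.85e-08), and only 1.69% of all genes tested had a larger change. In H/R the log2 change was 0.012, with a 95% interval from -0.12 to 0.14 (limma adjusted p = 0.921).

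Tlr4, the receptor of bacterial lipopolysaccharide (ENSMUSG00000039005, chromosome 4 from 66827584 to 66930284, plus strand), was at 3.73, 3.75 and 3.72 FPKM in Sham, 3.45, 3.97 and 3.84 FPKM in H/R and 4.47, 4.36 and 4.66 FPKM in EGR1OV. The EGR1OV libraries were again above all others, but by little. The log2 change in EGR1OV against Sham was 0.22, with a 95% interval from 0.10 to 0.33, so that its limma adjusted p of 0.00695 was under 0.05 and its size under the 1.3-fold threshold. After H/R the log2 change was 0.0045 (95% interval -0.11 to 0.12).

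Tlr5, the receptor of flagellin (ENSMUSG00000079164, chromosome 1 from 182954788 to 182976044, plus strand), was lower than Tlr4 in every library. It was at 0.787, 0.754 and 0.999 FPKM in Sham, 1.02, 1.10 and 1.00 FPKM in H/R and 1.12, 1.11 and 1.02 FPKM in EGR1OV, from 62 to 97 reads per library. Both treated groups lay above Sham without overlap, by a margin in the third decimal between the closest Sham and H/R libraries. Neither difference was called, with a log2 change of 0.15 in H/R (95% interval -0.018 to 0.31, limma adjusted p = 0.226) and 0.18 in EGR1OV (95% interval 0.011 to 0.34, limma adjusted p = 0.0768).

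Tlr1 and Tlr6, which form heterodimers with Tlr2, were under the filter. Tlr1 (ENSMUSG00000044827, chromosome 5 from 64924679 to 64933563, minus strand) had 13 to 26 reads in Sham, 16 to 26 in H/R and 12 to 17 in EGR1OV. Its group means were 0.318 ± 0.112 FPKM, 0.337 ± 0.0913 FPKM and 0.252 ± 0.0470 FPKM (SD, n = 3 each), and the 3 groups overlapped. Tlr6 (ENSMUSG00000051498, chromosome 5 from 64952031 to 64960097, minus strand) had 21, 31 and 17 reads in Sham, 26, 19 and 20 in H/R and 18, 8 and 7 in EGR1OV. One EGR1OV library of Tlr6 lay within the Sham range and the other two lay below it. Limma voom on the recovered reads of genes with at least 10 reads, a fit chosen after seeing the data, called 18% of all genes. In it Tlr6 was called lower in EGR1OV against Sham at a log2 change of -1.10 (limma voom adjusted p = 0.0199). On FPKM with no filter, where 8.04% of all genes were called, it was not (limma adjusted p = 0.111). Tlr1 was called in neither fit. Against H/R, where 21.2% of all genes were called by limma voom and 9.3% on FPKM with no filter, Tlr6 was again called lower by the first (log2 change -0.97, limma voom adjusted p = 0.0391) and not by the second. The neighbouring genes Tlr1 and Tlr6 lie 18467 bases apart and are close paralogs, so reads could have been split between them and both values are uncertain.

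Among the endosomal receptors, Tlr3, which reads double-stranded RNA, changed most of all members tested. Tlr3 (ENSMUSG00000031639, chromosome 8 from 45395665 to 45411080, minus strand) was at 4.89, 4.44 and 4.83 FPKM in Sham, 4.64, 4.86 and 5.05 FPKM in H/R and 27.4, 25.9 and 28.3 FPKM in EGR1OV. The EGR1OV libraries stood far above the other 6, and Sham and H/R overlapped. The means were 4.72 ± 0.246 FPKM, 4.85 ± 0.203 FPKM and 27.2 ± 1.22 FPKM (SD, n = 3 each), a ratio of 5.77 between EGR1OV and Sham. The log2 change in EGR1OV was 2.30 with a standard error of 0.048 (limma adjusted p = 4.93e-10), and 0.951% of all genes tested had a larger one. After H/R it was 0.032 (95% interval -0.077 to 0.14, limma adjusted p = 0.716). Of the exons of Tlr3, 5207 bases in all, 381 bases are shared with the antisense gene Gm45542, and the sources used here do not say whether counting used strand.

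Tlr7, which reads single-stranded RNA, went the other way. Tlr7 (ENSMUSG00000044583, chromosome X from 167304929 to 167330558, minus strand) had 32, 35 and 42 reads in Sham, 32, 37 and 30 in H/R and 17, 13 and 17 in EGR1OV. All EGR1OV libraries were below all others, at a mean of 0.231 ± 0.0314 FPKM against 0.531 ± 0.0806 FPKM in Sham and 0.464 ± 0.0432 FPKM in H/R (SD, n = 3 each). Tlr7 was above 0.5 FPKM in Sham but not over the 9 libraries, so the main test left it out. Limma voom on recovered reads of genes with at least 10 reads, a fit chosen after seeing the data, called Tlr7 lower in EGR1OV against Sham. The log2 change was -1.17 (limma voom adjusted p = 9.53e-04), where 18% of all genes were called. On FPKM with no filter the adjusted p was 0.00404 by limma, and the log2 change of -0.31, which the pseudocount of 1 shrinks at such levels, was under the fold threshold. Against H/R the limma voom log2 change was -0.98 (limma voom adjusted p = 0.00507), where 21.2% of all genes were called. After H/R none of the 4 members under the filter was called, neither by limma voom, where 4.69% of all genes were called, nor by limma on FPKM with no filter, where 1.41% were, and none had groups apart.

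Tlr9, the receptor of unmethylated CpG DNA (ENSMUSG00000045322, chromosome 9 from 106222598 to 106226883, plus strand), was the lowest member in every group. It had 5, 2 and 7 reads in Sham, 5, 1 and 5 in H/R and 4, 6 and 5 in EGR1OV. The groups overlapped, and no difference was detectable at this depth, the 95% interval of the log2 change in EGR1OV against Sham by limma voom running from -0.98 to 1.47.

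The fall of Tlr7 in EGR1OV stood beside a fall of the macrophage markers in the same libraries. The summed tubular, dendritic cell and endothelial markers were lower there too, while the summed fibroblast markers were not. Of 14 macrophage markers 12 were tested, and 11 of these were lower in EGR1OV against Sham, where 6.51% of all genes tested were called lower. The median log2 change of the 12 was -1.28. Without the 2 that were under 0.5 FPKM in EGR1OV, 9 of 10 were lower. Lyz2, the macrophage lysozyme, was at 55.8, 58.6 and 58.6 FPKM in Sham and 6.13, 5.02 and 5.24 FPKM in EGR1OV. The part of the macrophage markers in the results for Tlr7 and Tlr6 was not tested, and in bulk RNA fewer cells of a type and less RNA per cell cannot be told apart. Tlr2, Tlr3 and Myd88 were higher in the same libraries in which the macrophage markers were lower. After H/R, 2 of the 12 markers, Adgre1 and Lyz2, were lower, of which 1 remained with median-ratio or quantile scaling, and none was higher.

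The 4 Toll-like receptors of the mouse outside the member list were also low. Tlr12, which reads profilin of parasites, and Tlr13, which reads bacterial ribosomal RNA, were both called lower in EGR1OV, although both passed the filter only through Sham and H/R and so had to differ. Tlr12 was at 0.804, 0.632 and 0.839 FPKM in Sham and 0.0758, 0.0770 and 0.0935 FPKM in EGR1OV (log2 change -0.70, limma adjusted p = 1.27e-04). Tlr13 was at 0.908, 0.856 and 1.04 FPKM in Sham and 0.295, 0.165 and 0.175 FPKM in EGR1OV (log2 change -0.68, limma adjusted p = 1.10e-04). For both genes no EGR1OV library reached the Sham range, and neither was called after H/R. Tlr8 had a mean of 0.314 ± 0.126 FPKM in Sham and 0.179 ± 0.0398 FPKM in EGR1OV (SD, n = 3 each) and was not tested, and Tlr11 had 3 reads in all 9 libraries together.

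**Figure D2:**
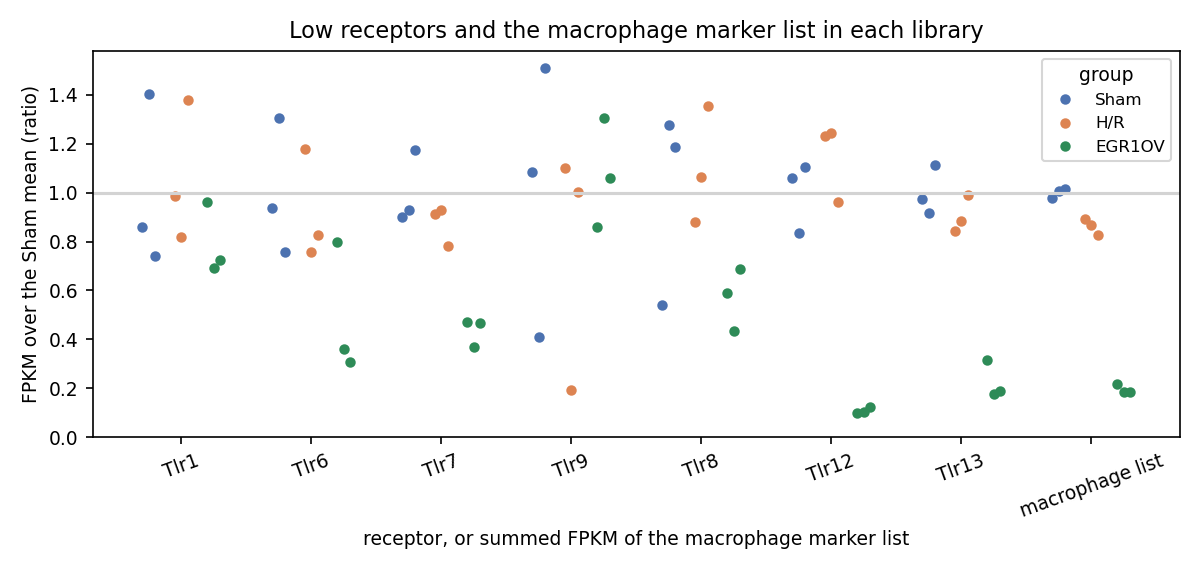
FPKM of the receptors with low levels, and summed FPKM of the 14 macrophage markers, each divided by its Sham mean, in each of the 9 libraries (points, coloured by group, n = 3 each). Tlr7, Tlr12, Tlr13 and the macrophage list lay lower in all 3 EGR1OV libraries than in the other 6, while Tlr1 and Tlr9 overlapped between groups. For Tlr8 the EGR1OV libraries overlapped Sham and lay below all H/R libraries, and 1 EGR1OV library of Tlr6 lay within the Sham range.

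Of the adaptors, Myd88 (ENSMUSG00000032508, chromosome 9 from 119335934 to 119341411, minus strand), which serves all Toll-like receptors but Tlr3 and also the interleukin-1 receptors, was at 4.08, 3.63 and 3.97 FPKM in Sham, 4.08, 4.14 and 3.66 FPKM in H/R and 8.37, 9.24 and 9.94 FPKM in EGR1OV. Its EGR1OV libraries did not overlap the others. The means were 3.90 ± 0.237 FPKM, 3.96 ± 0.263 FPKM and 9.18 ± 0.789 FPKM (SD, n = 3 each), a ratio of 2.36 between EGR1OV and Sham. The log2 change in EGR1OV was 1.05 with a standard error of 0.068 (limma adjusted p = 1.68e-06), larger than that of all but 2.6% of the genes tested. After H/R it was 0.018 (95% interval -0.13 to 0.17). Of the 2576 exon bases of Myd88, 290 overlap exons of Acaa1a on the other strand. Acaa1a, a peroxisomal thiolase, rose from 10.9 ± 0.345 FPKM in Sham to 16.0 ± 0.460 FPKM in EGR1OV (n = 3 each), a log2 change of 0.51 (limma adjusted p = 2.71e-06), so some reads of either gene could have been counted for the other.

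Ticam1, the adaptor of Tlr3 (ENSMUSG00000047123, chromosome 17 from 56269319 to 56276786, minus strand), was at 4.39, 4.66 and 4.98 FPKM in Sham, 4.94, 5.00 and 4.24 FPKM in H/R and 4.99, 5.19 and 4.69 FPKM in EGR1OV. The 3 groups overlapped. The log2 change in EGR1OV against Sham was 0.070, with a 95% interval from -0.078 to 0.22 (limma adjusted p = 0.419), an interval that stays below the 1.3-fold threshold. The levels of Tlr3 and of its adaptor Ticam1 were nearly equal in Sham, with a ratio of 1.01 ± 0.0890, and in H/R, with a ratio of 1.03 ± 0.136, while in EGR1OV the ratio was 5.51 ± 0.527 (SD, n = 3 each). The ratio of Myd88 to Ticam1 was 0.836 ± 0.0824 in Sham and 1.86 ± 0.233 in EGR1OV (SD, n = 3 each). For both ratios the exact two-sided permutation p of EGR1OV against Sham was 0.1, the smallest that 3 against 3 libraries allow.

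**Figure D3:**
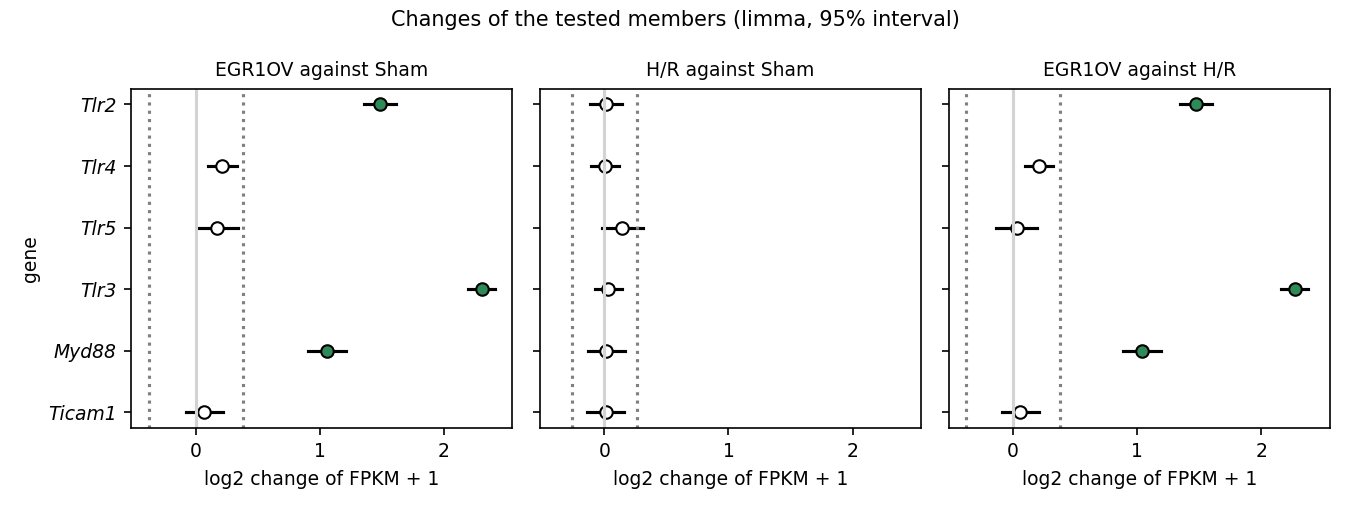
Change of the 6 tested genes on the scale of log2(FPKM + 1) in 3 comparisons, as limma estimates (points, filled where called) with 95% intervals (bars). Dotted lines mark the fold threshold, 1.3-fold for the comparisons with EGR1OV and 1.2-fold for H/R against Sham. Tlr2, Tlr3 and Myd88 were called in both comparisons with EGR1OV, and none of the 6 in H/R against Sham.

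The order of the levels was the same in Sham and H/R for the 7 most abundant members, with Tlr2 first and Tlr3, Ticam1, Myd88, Tlr4, Tlr5 and Tlr7 after it. In Sham the ranges of Tlr3 and Ticam1 overlapped, as did those of Myd88 and Tlr4. In EGR1OV, Tlr3 stayed second and Myd88 moved from the fourth to the third place, with no overlap between neighbours down to Tlr5. The 4 members under the filter kept the last places. Tlr2 made up 50.2% ± 1.34 of the summed FPKM of all 12 Toll-like receptors in Sham, 49.8% ± 1.64 of it after H/R and 52.4% ± 1.44 with EGR1OV (SD, n = 3 each). The share of Tlr3 was 18.7% ± 1.09 for Sham, 18.8% ± 0.387 for H/R and 38.1% ± 1.29 for EGR1OV (SD, n = 3 each), and that of Tlr4 was 14.8% ± 0.236, 14.6% ± 0.642 and 6.30% ± 0.169 in the same order. The summed level itself (SD, n = 3 each) was 25.3 ± 0.359 FPKM for Sham, 25.7 ± 1.58 FPKM for H/R and 71.4 ± 0.956 FPKM for EGR1OV. The ratio of Tlr2 to Tlr3 was 2.70 ± 0.222 in Sham and 1.38 ± 0.0843 in EGR1OV, without overlap (exact two-sided permutation p = 0.1, n = 3 each).

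**Figure D4:**
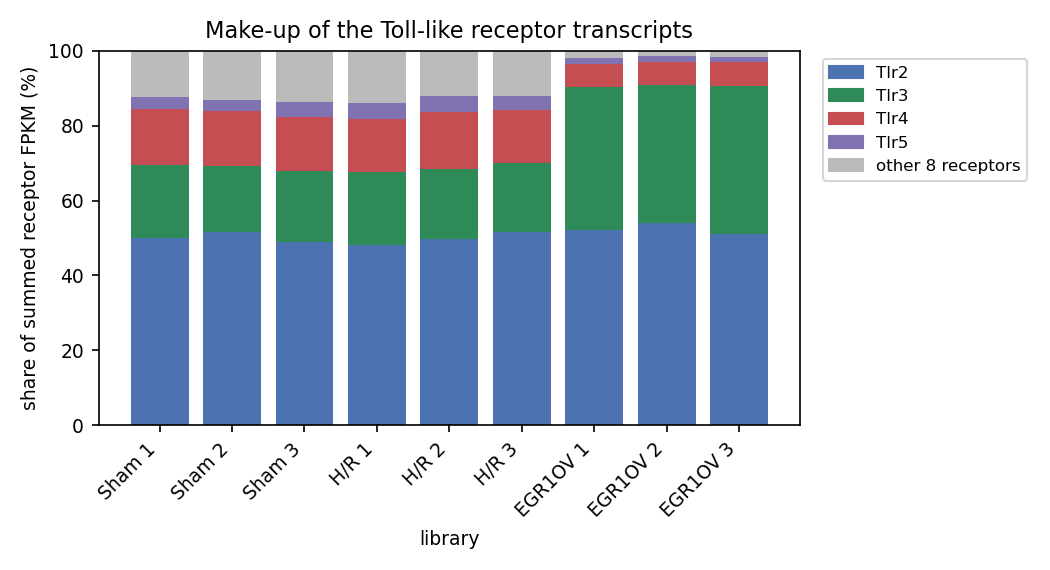
Share (%) of each Toll-like receptor in the summed FPKM of all 12 receptors, 1 bar per library. Tlr2 held about the same share in all libraries, with group means of 50.2%, 49.8% and 52.4%, while the mean share of Tlr3 was 18.7%, 18.8% and 38.1%, each for Sham, H/R and EGR1OV.

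The remaining genes of the pathway were followed through 9 lists of 87 genes, of which 76 were tested. In EGR1OV against Sham 32 were called higher and 4 lower, against 9.87% and 6.51% of all genes tested, and in H/R against Sham 8 were called higher and 1 lower, against 1.6% and 2.65% of all genes. The filter tilts the first of these counts, since 7 of the 32 (6 cytokines and Lbp) were under 0.5 FPKM in both Sham and H/R and 3 of the 4 (Tlr12, Tlr13 and Cd36) were under it in EGR1OV. Of the other 66 genes, 25 were called higher and 1 lower, with a median log2 change of 0.24. Of the other adaptors, Tirap, which bridges Tlr2 and Tlr4 to Myd88, had a log2 change of 0.074 in EGR1OV (limma adjusted p = 0.295), and Pik3ap1, which links the receptors to phosphoinositide 3-kinase, had one of 0.059 (limma adjusted p = 0.754). Neither was called in any comparison. Ticam2, the bridge between Tlr4 and Ticam1, and Sarm1 were not tested, with means in Sham of 0.0398 FPKM and 0.145 FPKM.

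Among the co-receptors and ligand carriers 5 were tested, of which Lbp passed the filter only through EGR1OV and Cd36 only through Sham and H/R. Of the other 3, Cd14 and Ly96 were called higher in EGR1OV. Cd14, which hands lipopolysaccharide and lipopeptides to Tlr4 and Tlr2, was at 4.76, 5.80 and 5.82 FPKM in Sham and 19.8, 18.0 and 16.1 FPKM in EGR1OV (log2 change 1.55, limma adjusted p = 3.17e-06). Lbp, the lipopolysaccharide-binding protein, was at 0.135 ± 0.0375 FPKM in Sham and 1.74 ± 0.187 FPKM in EGR1OV (SD, n = 3 each). Ly96 (MD-2), the partner of Tlr4, had a log2 change of 0.40 (limma adjusted p = 0.00876), a call that was lost with median-ratio and with quantile scaling. Cd36, a scavenger receptor that works with Tlr2 and Tlr6 and is also found on macrophages, was at 1.22, 1.04 and 1.11 FPKM in Sham and 0.285, 0.170 and 0.182 FPKM in EGR1OV.

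Of 11 genes for folding, trafficking and processing of the receptors, 1 was higher and 1 lower, a share close to the 16.4% called among all genes. Unc93b1, which carries Tlr3, Tlr7 and Tlr9 from the endoplasmic reticulum to endosomes, was at 4.92, 5.23 and 5.37 FPKM in Sham and 13.9, 15.0 and 13.7 FPKM in EGR1OV (log2 change 1.302, limma adjusted p = 5.95e-08). It thus rose in the same libraries as Tlr3, whereas Tlr7 was lower there. Ctss, the endosomal protease cathepsin S, abundant in macrophages, was at 18.9, 19.9 and 20.8 FPKM in Sham and 6.52, 5.18 and 7.22 FPKM in EGR1OV, and fell by 1.52 on the log2 scale. The part of the macrophage markers in the results for Ctss, Cd36, Tlr12 and Tlr13 was not tested.

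Downstream, 3 of 20 kinases and ubiquitin ligases were called in EGR1OV, all higher, a share close to the 16.4% called among all genes. Ikbke, a kinase that phosphorylates interferon regulatory factors, was at 3.20, 2.60 and 2.65 FPKM in Sham and 8.37, 8.81 and 8.02 FPKM in EGR1OV (log2 change 1.303, limma adjusted p = 2.30e-07). Peli3, a ubiquitin ligase, had a log2 change of 0.87, and Tbk1, the kinase partner of Ikbke, had one of 0.41, a call lost with quantile normalization. The median log2 change of the 20 was 0.17, against 0.017 over all genes. Of 10 negative regulators 5 were higher, where 9.87% of all genes tested were called higher. Socs1, an inhibitor of cytokine signalling, rose by 1.17 on the log2 scale, Nfkbia, the inhibitor of NF-kB, by 1.15 and Tnfaip3, the deubiquitinase A20, by 0.88. Trim30a went from 0.723 ± 0.269 FPKM to 60.6 ± 1.80 FPKM (n = 3 each, log2 change 5.17), although reads of close paralogs could be split with it. Among the 5 tested receptors of the interleukin-1 family, which also use Myd88, Il18rap and Il1rap were higher in EGR1OV, by 0.86 and 0.39 on the log2 scale, the second call being lost with either other scaling.

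Of 11 transcription factors at the end of the pathway 8 were higher, or 7 with quantile normalization, where 9.87% of all genes tested were called higher. The median log2 change of the 11 was 0.56, against 0.017 over all genes. Like the other lists, this list was chosen with earlier results of these data known. Irf7, the interferon regulatory factor downstream of endosomal receptors, was at 0.918, 0.942 and 0.610 FPKM in Sham and 218, 228 and 223 FPKM in EGR1OV (log2 change 6.95, limma adjusted p = 1.38e-11). Irf5, Atf3 and Fos had log2 changes of 1.37, 1.22 and 1.06. Of the 10 cytokines and chemokines, 6 reached the filter through EGR1OV alone, with means under 0.5 FPKM in Sham and in H/R, so that they had to differ and their calls carry no weight. The other 4, Ccl5, Cxcl10, Ccl2 and Cxcl1, were all called higher. Ccl5 was at 1.77, 1.91 and 1.39 FPKM in Sham and 507, 526 and 589 FPKM in EGR1OV. Cxcl10, a chemokine induced by interferon, went from 6.13 ± 0.424 FPKM to 267 ± 1.78 FPKM, Ccl2 from 4.09 ± 0.517 FPKM to 132 ± 10.2 FPKM and Cxcl1 from 0.593 ± 0.177 FPKM to 29.6 ± 3.18 FPKM (SD, n = 3 each).

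After H/R, where no member was called, the 9 pathway genes called were Ccl2, Cxcl10, Nfkbia, Il18rap and Atf3 and, named after their values were seen, Il1rl1, Il18r1, Nfkb2 and Relb. Cxcl10 was at 9.08, 9.73 and 8.71 FPKM in H/R, above all Sham libraries (log2 change 0.51, limma adjusted p = 5.15e-04), and Ccl2 was at 5.97, 6.55 and 7.63 FPKM (log2 change 0.60, limma adjusted p = 0.00595). Nfkbia had a log2 change of 0.29, Il18rap of 0.35, Il1rl1 of 0.42, Il18r1 of 0.28, Nfkb2 of 0.33 and Relb of 0.30. Atf3 was lower, at 3.47, 3.54 and 4.29 FPKM in H/R against 4.74, 5.59 and 5.74 FPKM in Sham (log2 change -0.42, limma adjusted p = 0.0132).

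**Figure D5:**
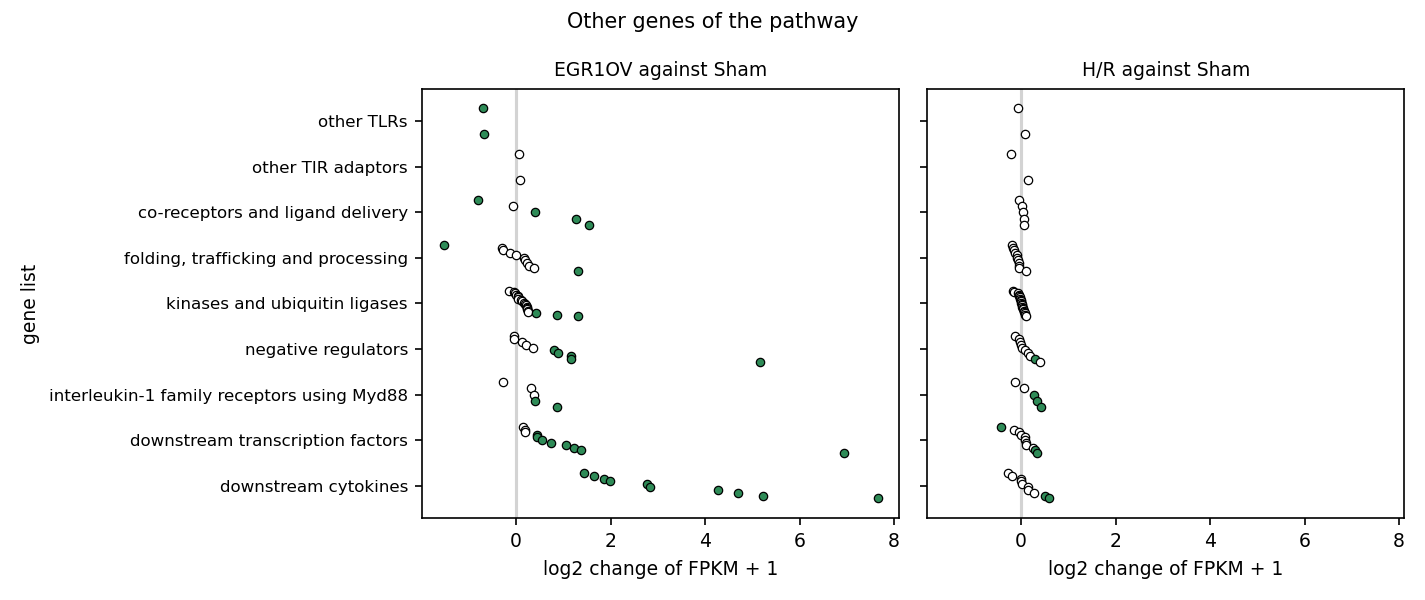
Change on the scale of log2(FPKM + 1) of the 76 tested pathway genes outside the member list, by gene list, in EGR1OV (left) and H/R (right) against Sham. Each point is 1 gene, filled where called. In EGR1OV 32 genes were called higher and 4 lower, of which 7 and 3 passed the filter only through the side on which they were high, and after H/R 8 were called higher and 1 lower.

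For each tested member the gene with the nearest pattern was sought among 7585 genes averaging 5 FPKM or more, by the root mean square difference over the 9 libraries of log2(FPKM + 1) centred on the Sham mean. The nearest gene was H6pd for Tlr2 (difference 0.062), Zc3h12a for Tlr3 (0.080), Ankfy1 for Myd88 (0.075), Snx9 for Tlr4 (0.033), Baz1a for Tlr5 (0.047) and Abhd17a for Ticam1 (0.037). This is a description over 9 libraries that fall into 3 groups.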

How the data were processed

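RNA of 9 libraries was measured on an Illumina NovaSeq instrument. The authors deposited 1 table of FPKM, in which every library has its own column. The submitters' processing notes name Bowtie2 2.2.3, HISAT2 2.1.0, TopHat2 and mm9, without their roles, while the gene positions of the table are those of GRCm38, with 94.6% equal to GENCODE M21, as for every member. The counter and its use of strand are not given in the sources used here. In 26 rows a symbol turned into a date was restored from the gene identifier.

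The sample titles gave group and replicate number. All 9 libraries entered a limma fit (version 3.58.1 in R 4.3.3, eBayes with trend) of log2(FPKM + 1), for 13985 genes averaging 0.5 FPKM or more, two-sided, with Benjamini-Hochberg adjustment over all of them. The pseudocount understates changes of low genes. The threshold was an adjusted p of 0.05 and 1.3-fold, or 1.2-fold for H/R against Sham. With exon lengths from GENCODE M21, 94% of 162948 values of 1 to 1000 reads came out whole within 0.02 reads, and so did all values of the members. These reads gave the depths and the limma voom alternative. Reads carry no molecular identifiers, so depth limits cover counting error only. No 2 libraries of a group agreed within sampling noise (chi-square per degree of freedom 1.98 to 3.88), and none were merged.

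The members and gene lists were chosen with earlier results of these data known. Named were all members, from each pathway list up to 4 called genes with the largest change in EGR1OV against Sham, all other receptors and adaptors, from each marker list among its 4 most abundant genes, and the gene nearest in pattern to each tested member. Umod, Aqp1, Lrp2, Adgre1, Acaa1a and Gm23935 were named after their values were seen, as were 4 pathway genes in H/R. On simulated libraries of 13130 genes for EGR1OV against Sham, 180 of 200 changed genes were recovered, with 7 false calls. The changed genes were well covered, their changes were above the 1.3-fold threshold, and little spread between libraries was simulated. Recovery of low genes, of changes near the threshold or at 1.2-fold after H/R was not tested. Promoter windows are from RefSeq (GRCm38.p6), found for 8 of 10 members. Alternatives changed the pseudocount, filter, scaling, block, trend, groups fitted, fold threshold and libraries. Scripts ran in Python 3.11.15 (scipy 1.17.1, pandas 2.3.3, numpy 2.4.6). Figures were drawn with matplotlib 3.10.9.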

Additional observations from a re-analysis of the deposited data

Results flagged for a closer look

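The changes in EGR1OV and after H/R against the same Sham libraries were compared directly, by the limma contrast of EGR1OV against H/R, and differed for 3 members. For Tlr3 the change in EGR1OV exceeded that after H/R by 2.27 on the log2 scale, with a standard error of 0.048 (limma adjusted p = 5.09e-10), and every EGR1OV library was above every H/R library. For Tlr2 the difference was 1.48, with a standard error of 0.056 (limma adjusted p = 3.98e-08), and for Myd88 it was 1.04, with a standard error of 0.068 (limma adjusted p = 1.77e-06), also without overlap. Groups of 3 libraries were not searched for single libraries far from the others.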

How the results depend on the processing

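Tlr2, Tlr3 and Myd88 were called higher in both comparisons with EGR1OV, and no member after H/R, under all 21 alternatives, of which 9 left out 1 library each. With no fold threshold Tlr4 joined them, which makes 4 of the 6 tested members called in each comparison with EGR1OV. In that setting 6417 of all 13985 genes tested were called against Sham and 7135 against H/R. Limma voom on genes of at least 10 reads, which is not among the 21, also called Tlr6 and Tlr7 lower in both comparisons with EGR1OV. That fit called 18% of all genes against Sham and 21.2% against H/R. Over all alternatives the log2 change in EGR1OV against Sham ran from 1.41 to 1.56 for Tlr2, from 2.24 to 2.53 for Tlr3 and from 0.96 to 1.24 for Myd88. Members that were not called could change sign around 0. With the Gm23935 level as covariate (1494 to 21700 FPKM over the libraries, an alternative chosen after seeing the data, like limma voom on genes of at least 10 reads), the log2 change after H/R was -0.0017 for Tlr3, -0.022 for Tlr4 and -0.010 for Myd88. With quantile normalization Ticam1 was at -0.0022 in EGR1OV against Sham and -0.052 against H/R, and Tlr5 at -0.025 against H/R, or -0.0071 with median-ratio scaling. With 1 library left out, the log2 change after H/R ran from -0.049 to 0.077 for Tlr2, -0.0038 to 0.058 for Tlr3, -0.029 to 0.052 for Tlr4, -0.022 to 0.062 for Myd88 and -0.026 to 0.073 for Ticam1, and in EGR1OV against H/R from -0.0033 to 0.094 for Ticam1.

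No pairing of the libraries by replicate number was seen. The deviations of same-numbered libraries correlated at -0.20 to 0.26, with 2 of 9 pairs over 0.1, and those of differently numbered libraries at -0.22 to 0.18. Of the 9 libraries, 3 correlated best with their own number. So few libraries cannot exclude a batch or culture shared by number. With the replicate number as a block, 3 members were called in each comparison with EGR1OV and 0 after H/R. Over all 13985 genes tested, the calls in EGR1OV against Sham, H/R against Sham and EGR1OV against H/R were 2291, 594 and 2641. They were 2309, 516 and 2654 with the replicate block and 6417, 1635 and 7135 without the fold threshold. When 2-fold was asked they were 484, 11 and 489. Among the 7588 genes averaging 5 FPKM or more they were 1315, 372 and 1520. With limma voom H/R against Sham had 921 of 13130 genes called. The share called higher was 60.3%, 37.7% and 63.2%, against 54.9%, 58.2% and 51.0% with median-ratio scaling and 45.9%, 56.4% and 42.5% with quantile normalization. No called gene of the pathway or marker lists changed sign under either scaling. In promoter windows cut at the start, the Tlr2 match across it is lost and the other matches of the printed windows stay, with 3.92% of all windows holding the kappaB motif. Depth limits Tlr1, Tlr6, Tlr7 and Tlr9, with at most 42 reads per library.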
